A study of Drosophila melanogaster with 9 samples.

Results

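DNA replication was followed through 10 genes in *Drosophila melanogaster* embryos, and all 10 were found by name among the 15228 genes of the deposited table. They are the subunits of the replicative helicase, *Mcm2*, *Mcm3*, *dpa* (the fly *Mcm4*), *Mcm5*, *Mcm6* and *Mcm7*, the sliding clamp *PCNA*, both ribonucleotide reductase subunits, *RnrL* and *RnrS*, and the ligase *DNAlig1*. The genes were listed by function, with earlier results of these data known. RNA of whole stage 16 embryos was sequenced in 9 samples, 3 per genotype, with 200 embryos in each. The genotypes were control embryos (titles beginning with w, genotype WT), *pri* mutants (*pri* S18.1) and *ken* mutants (*ken*1 over *Df*(*2R*)*BSC660*, a deficiency that removes *ken*). Mutant embryos were picked by hand with a GFP balancer, and the study's methods call the samples of a genotype independent. *pri* encodes small peptides that act in epidermal differentiation, and *ken* encodes a transcriptional repressor. Control and mutant lines differ by more than the named alleles, so allele, deficiency and genetic background cannot be told apart.

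The MCM proteins form a ring of related subunits that is loaded on origins before S phase and unwinds DNA at the fork. PCNA encircles the new duplex and holds polymerases and other enzymes on it, ribonucleotide reductase makes deoxynucleotides from ribonucleotides, and DNA ligase 1 seals the fragments of the lagging strand. In flies, as in other animals, these genes are transcribed under E2F control as cells enter S phase. By stage 16 most epidermal cells of the embryo have stopped dividing, while neuroblasts still divide and several tissues replicate their DNA without mitosis.

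*DNAlig1* was the one of the 10 genes that edgeR called. It rose 4.91-fold in *ken* mutants and was not called in *pri* mutants, while none of the other 9 genes passed that test in either mutant (*RnrL* passed in *ken* mutants by DESeq2). The samples of a genotype were not all alike. Pairs of samples were compared over all genes by a chi-square per degree of freedom. *pri* sample 1 differed from the other *pri* samples by 82.8 and 99.5, against 7.62 between *pri* samples 2 and 3. *ken* samples 1 and 2 differed by 89.1, *ken* samples 1 and 3 by 37.9 and *ken* samples 2 and 3 by 34.7. These values thus do not set *ken* sample 1 apart from *ken* sample 2. Control samples differed by 22.2 to 28.7. *pri* sample 1 was the lowest of the *pri* samples for all 10 genes. For most calls that depend on *pri* sample 1 or *ken* sample 1, the result without that sample is given as well. Other values include both samples unless stated. Depth was 21048610 to 28859395 counts per sample. *ken* itself, as a check of the labels, had 1240 ± 85.1 normalized counts in *ken* mutants and 6940 ± 500 in controls (SD, n = 3 each). The level of *pri* is not analysed here. Of the markers of other cell types, the 6 neuroblast, 7 germ line, 6 neuron, 4 glia, 6 muscle and 5 midgut markers had no member called by edgeR in either mutant (6 at an unadjusted p under 0.05 in *pri* mutants and 3 in *ken* mutants). DESeq2 called 1 germ line marker higher and 1 lower and 1 midgut marker higher in *pri* mutants, and 2 germ line markers higher in *ken* mutants. Of 6 epidermis markers, 3 fell in *pri* mutants (*sha*, *m* and *f*, needed for epidermal trichomes) and neither tool called any for *ken* mutants (1 had an unadjusted p under 0.05). *Ddc* and *ple*, of the same list, averaged 3521 and 3497 normalized counts in *pri* mutants against 1760 and 1986 in controls, which did not pass the test (adjusted p = 0.365 and 0.478, edgeR). They had 7071 and 7841 normalized counts in *pri* sample 1 and 1286 to 2095 in the other *pri* samples. The summed level of the 6 ran from 9885 to 12576 normalized counts in control samples, 5051 to 16584 in *pri* samples and 12259 to 14611 in *ken* samples. The part of these markers in the results was not tested.

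Levels are the authors' normalized counts, that is counts divided by a size factor for the depth of the sample. Fold changes and adjusted p-values come from edgeR's quasi-likelihood test on the counts of all 9 samples, adjusted over all 15228 genes by the Benjamini-Hochberg method, with 0.05 as the threshold for a call. In whole embryos, fewer cells of a type and less RNA per cell cannot be told apart.

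**Figure D1:**
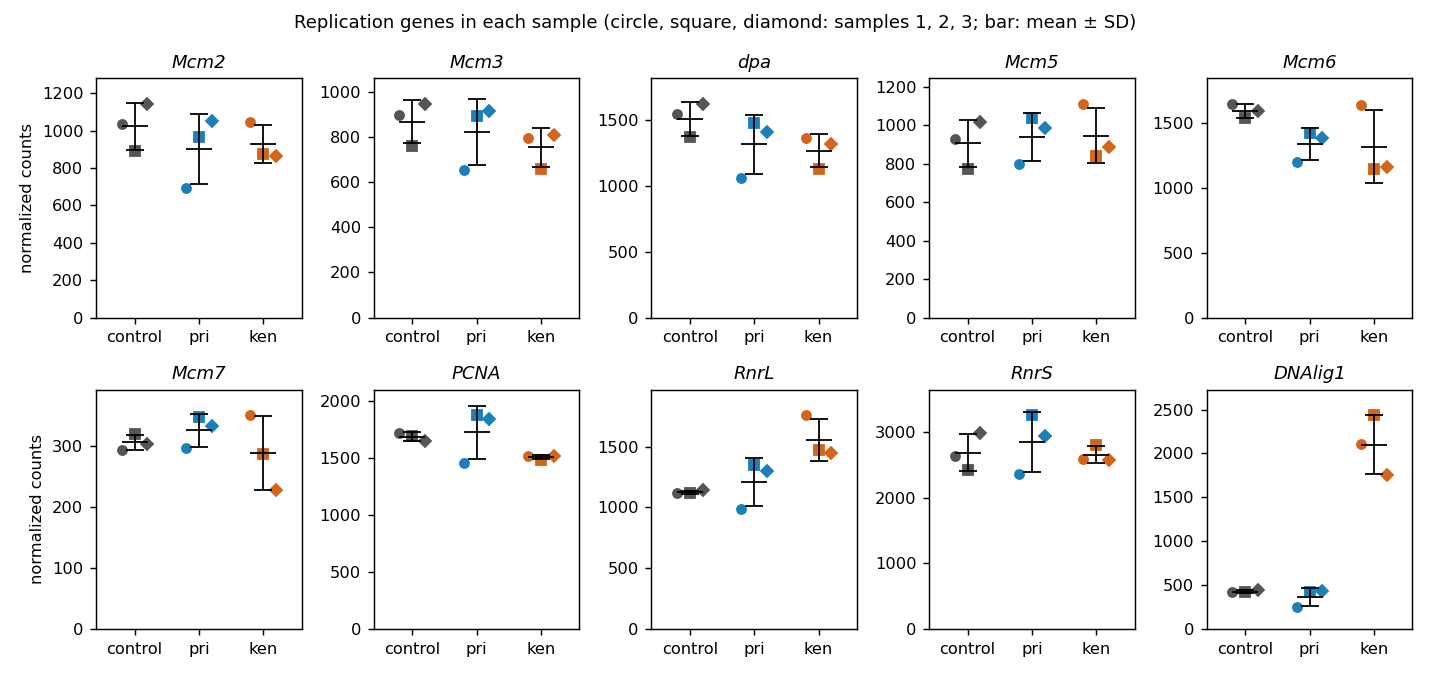
Normalized counts (vertical axes, starting at 0) of the 10 replication genes in control, *pri* and *ken* embryos, with a circle, square and diamond for samples 1, 2 and 3 and black bars for the mean ± SD (n = 3). *DNAlig1* lies between 1757 and 2433 in *ken* mutants and at or under 445 in all other samples, while *pri* sample 1 is the lowest *pri* sample in every panel.

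To compare genes with one another, levels were divided by exon length. In control embryos *RnrS* had the highest level, at 1687 ± 179 normalized counts per kilobase (SD, n = 3), followed by *PCNA* at 1574 ± 36.2. The samples of these 2 genes overlapped. *Mcm6* was the most abundant helicase subunit per kilobase (571 ± 19.0), ahead of *dpa* (492 ± 42.3). *RnrL*, the large reductase subunit, stood at 436 ± 5.59. *Mcm5* (369 ± 50.2), *Mcm2* (353 ± 43.5) and *Mcm3* (316 ± 35.0) followed, and their samples overlapped. *DNAlig1* (179 ± 6.79) and *Mcm7* (125 ± 5.29) were the lowest. The helicase subunits, which assemble in equal number in the protein complex, thus differed in RNA per kilobase from 125 to 571. *pri* mutants had the same order but for *RnrL* (469 ± 76.5), which stood above *dpa* (428 ± 73.6). In *ken* mutants *DNAlig1* came next after *RnrS* and *PCNA*, at 880 ± 142 normalized counts per kilobase, above *RnrL* (604 ± 67.3) and every helicase subunit. *Mcm7* was again last, at 118 ± 24.8.

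The first question was whether loss of *pri* changes replication genes at this stage. None of the 10 genes was called by edgeR in *pri* mutants against control, 0 passed at an unadjusted p under 0.05 and 0 were called by DESeq2. Over all genes tested, 3.68% were called higher and 3.83% lower in that comparison. The median log2 fold change of the 10 genes was −0.02, against 0.02 over all genes. The range was −0.25 (*Mcm6*) to 0.10 (*RnrL*). For the 9 genes other than *DNAlig1*, the 95% intervals reached from 0.674-fold at the lowest to 1.36-fold at the highest.

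In *ken* mutants against control, 1 of the 10 genes was called higher (*DNAlig1*) and none lower by edgeR. At an unadjusted p under 0.05 there were 2 higher and 0 lower, and DESeq2 called 2 higher (*DNAlig1* and *RnrL*) and 0 lower. Over all genes tested, edgeR called 2.21% higher and 2.81% lower, and DESeq2 called 4.28% higher. The median log2 fold change of the 10 genes was −0.11, against 0.01 over all genes. Without *DNAlig1*, the 9 genes had fold changes of −0.28 (*Mcm6*) to 0.47 (*RnrL*) on the log2 scale, and their 95% intervals reached from 0.663-fold to 1.68-fold. Both mutants were set against the same 3 control samples. Set directly against each other, *pri* and *ken* mutants differed in 1 of the 10 genes, *DNAlig1*, which was lower in *pri* mutants, and none was higher (0 higher and 2 lower at an unadjusted p under 0.05; 0 higher and 1 lower by DESeq2). In that comparison 4.03% of all genes were called higher in *pri* mutants and 4.09% lower.

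**Figure D2:**
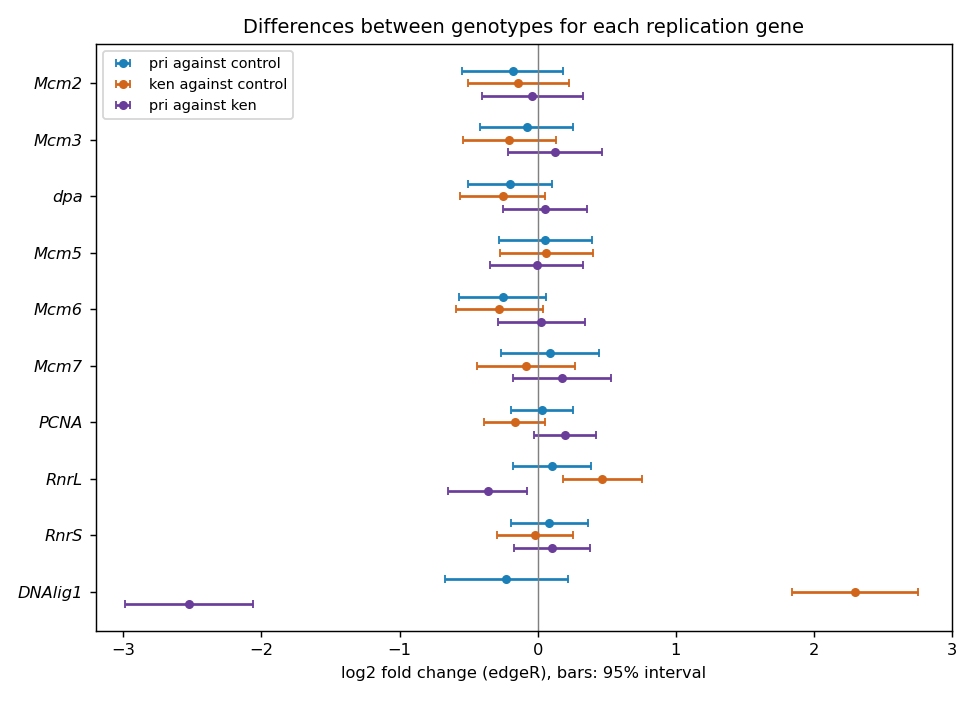
Log2 fold change (horizontal axis, edgeR) with its 95% interval for each replication gene, with a colour for each mutant against control and for *pri* against *ken*. Only the intervals of *DNAlig1* (2.30 and −2.52 in the comparisons with *ken* mutants) and of *RnrL* (0.47 and −0.36) leave out 0.

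*DNAlig1* (FBgn0262619) lies on chromosome 2R of dm6 from 23890512 to 23893177, on the plus strand. Its level was 417, 417 and 445 normalized counts in the control samples. In *pri* samples it was 246, 418 and 428, and in *ken* samples 2108, 2433 and 1757. Every *ken* sample was thus far above all other samples, and control and *pri* samples overlapped, with *pri* sample 1 apart at the low end. The means were 426 ± 16.2 for control, 364 ± 102 for *pri* and 2100 ± 338 for *ken* embryos (SD, n = 3 each). The log2 fold change in *ken* mutants was 2.30 (SE 0.20, 95% interval 1.84 to 2.75, adjusted p = 0.000333, edgeR; 7.35e-25 by DESeq2), or 4.91-fold. It passed the threshold in all 17 alternatives, with values of 2.19 to 2.41, and was 2.29 without *ken* sample 1 (adjusted p = 0.00186, edgeR). In *pri* mutants the log2 fold change was −0.23 (SE 0.20, adjusted p = 0.539, edgeR), and −0.01 without *pri* sample 1 (adjusted p = 0.974, edgeR). The difference between the mutants was −2.52 for *pri* against *ken* (SE 0.21, adjusted p = 0.000237, edgeR) and passed in all 17 alternatives. Among the 337 genes called higher in *ken* mutants, *DNAlig1* was the 101st by size of the rise, and it was the 44th of all 15228 genes by p-value.

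*DNAlig1* was also set against *PCNA*, whose protein binds DNA ligase 1 at the fork. The ratio of their normalized counts was 0.242, 0.247 and 0.271 in control samples. It was 0.170, 0.223 and 0.232 in *pri* samples and 1.39, 1.64 and 1.16 in *ken* samples. The *ken* samples lay above all others in this ratio, which is not divided by exon length. Per kilobase, *PCNA* remained above *DNAlig1* in *ken* mutants, at 1406 ± 16.5 against 880 ± 142 normalized counts (SD, n = 3 each). The last exon bases of *DNAlig1* overlap those of *Upf3*, a nonsense-mediated decay gene on the other strand, by 112 bases. The libraries kept strand, but the strand setting of the counting is not given in the sources used here. *Upf3* stood at 470 normalized counts on average in control embryos and at 493 in *ken* mutants, with a log2 fold change of 0.06 (adjusted p = 0.839, edgeR).

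*DNAlig1* lies 13070 bases from the end of *ken*, so its neighbours were examined. Of the 10 genes on its left, towards and beyond *ken*, 6 fell in *ken* mutants and 0 rose by edgeR (7 and 0 by DESeq2), with a median log2 fold change of −0.67. These counts and the median include *ken* itself, which the deficiency removes. At an unadjusted p under 0.05 there were 8 of the 10. They include *Mtpbeta*, beyond *ken*, which was higher in *ken* mutants (log2 fold change 0.25, adjusted p = 0.139, edgeR). It stood at 2319 to 2371 normalized counts in control samples and at 2510 to 3049 in *ken* samples. Of the 10 genes on the right of *DNAlig1*, 2 rose and 0 fell by both tools, with a median of 0.20. Over all genes tested, edgeR called 2.21% higher and 2.81% lower in *ken* mutants. *DCP1*, a gene for an mRNA decapping protein, ends 236 bases before *DNAlig1* begins and is read from the other strand, away from it. It stood at 443, 481 and 475 normalized counts in control samples and at 311, 266 and 304 in *ken* samples, a log2 fold change of −0.67 (SE 0.10, adjusted p = 0.00543, edgeR). *DCP1* and *DNAlig1*, which begin 236 bases apart, thus changed in opposite directions. *CG4882* was lower by a log2 fold change of −0.93 (SE 0.13, adjusted p = 0.00304, edgeR) and *ken* by −2.49 (SE 0.13, adjusted p = 2.54e-05, edgeR). The other genes that fell on the left were *TBPH*, for an RNA-binding protein, *Cpes*, for a sphingolipid enzyme, and *CG5569*, with log2 fold changes of −0.46, −0.45 and −0.72. These falls passed in only 11, 13 and 12 of 17 alternatives, in that order. The gene that only DESeq2 called lower was *TM4SF* (log2 fold change −1.87, adjusted p = 0.155, edgeR; 0.0221 by DESeq2). It stood at 324, 360 and 380 normalized counts in control samples and at 114, 80.0 and 97.7 in *ken* samples. In *pri* samples it was 364, 57.2 and 54.4, so low levels were not particular to *ken* mutants.

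On the right, *CG17658* and *Lpt* rose, and both lie on the plus strand like *DNAlig1*. *CG17658* begins 1886 bases after the end of *DNAlig1*. It was close to absent from control samples (0.87, 3.60 and 5.70 normalized counts) and from *pri* samples (1.15, 2.12 and 5.23), and stood at 91.3, 105 and 81.0 in *ken* samples. Its log2 fold change of 4.78 (SE 0.51, adjusted p = 0.00084, edgeR) rests on a few control counts, and 102 of its exon bases overlap *CG5339* on the other strand, which was not called (log2 fold change 0.18, adjusted p = 0.402, edgeR). *Lpt*, which encodes a component of a histone methyltransferase complex, stood at 907, 812 and 860 normalized counts in control samples. It stood at 1198, 1311 and 1219 in *ken* samples, a log2 fold change of 0.53 (SE 0.08, adjusted p = 0.00661, edgeR). Both rises passed in all 17 alternatives. In *pri* mutants 1 of the 10 genes on the left rose (*Cpes*, in 10 of 17 alternatives, and not when any 1 control sample, 1 of *pri* samples 2 and 3, or *ken* sample 3 was left out, with an adjusted p of up to 0.125 by edgeR) and none fell, and none of those on the right was called by edgeR (4 of 10 at an unadjusted p under 0.05; 2 by DESeq2). The count of genes that fell on the left in *ken* mutants was 3 without control sample 2, control sample 3, *ken* sample 1 or *ken* sample 3, and the count that rose on the right was 2 in every alternative. Where the deficiency ends and where *ken*1 is inserted are not given in the sources used here, and the part of either in these changes was not tested.

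**Figure D3:**
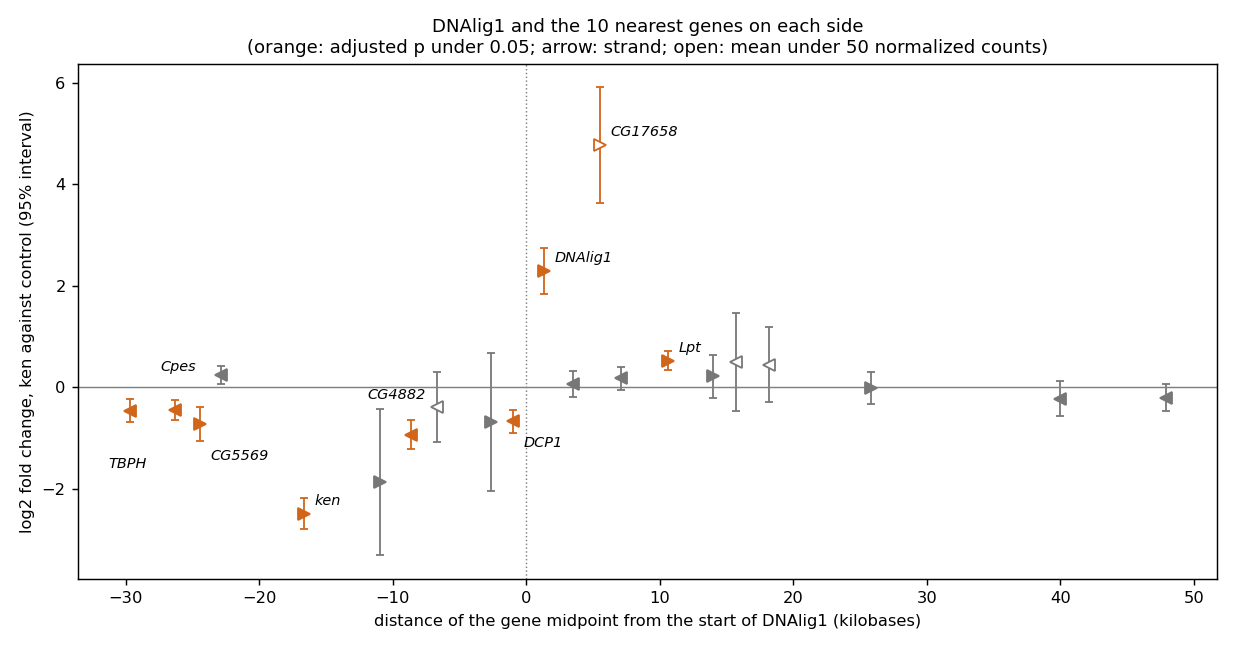
Log2 fold change in *ken* against control (vertical axis, edgeR, with 95% interval) of *DNAlig1* and the 10 nearest genes on each side, by distance of the gene's midpoint from the start of *DNAlig1* in kilobases. Arrows show the strand, orange an adjusted p under 0.05 and open symbols a mean under 50 normalized counts. All 6 called genes on the left lie under 0, and *DNAlig1* (2.30), *CG17658* (4.78) and *Lpt* (0.53) lie above it.

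The reductase subunits work as one enzyme, and neither was called by edgeR. *RnrL* (FBgn0011703, 2L, 10325026 to 10327943) carries the catalytic site. It stood at 1116, 1116 and 1141 normalized counts in control samples. Values were 983, 1347 and 1297 in *pri* samples and 1757, 1469 and 1445 in *ken* samples. The *ken* samples thus lay above all others, with *ken* sample 1 the highest and little spread among control samples. *RnrL* and *DNAlig1* were the 2 of 10 genes whose *ken* samples all lay above the control samples, and 12.3% of all genes were so separated. The log2 fold change of *RnrL* in *ken* mutants was 0.47 (SE 0.13, 95% interval 0.18 to 0.75), or 1.38-fold, and it did not pass the test (adjusted p = 0.0738, edgeR). It passed by DESeq2 (adjusted p = 0.0166), in a fit of only the genotypes compared (0.0325) and without *pri* sample 1 (0.0145), and not in the other 14 alternatives. Without *ken* sample 1 it was 0.37 (adjusted p = 0.177, edgeR). The difference between the mutants was −0.36 for *pri* against *ken* (SE 0.13, adjusted p = 0.123, edgeR).

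*RnrS* (FBgn0011704, 2R, 11983145 to 11985393), the small subunit that holds the radical cofactor, stood at 2639, 2430 and 2994 normalized counts in control samples. It stood at 2358, 3257 and 2942 in *pri* samples and at 2594, 2802 and 2572 in *ken* samples. The 3 genotypes overlapped, with log2 fold changes of 0.08 in *pri* mutants (adjusted p = 0.724, edgeR) and −0.02 in *ken* mutants (adjusted p = 0.968, edgeR). The ratio of *RnrL* to *RnrS* was accordingly 0.421 ± 0.0391 for control, 0.424 ± 0.0148 for *pri* and 0.588 ± 0.0798 for *ken* embryos (SD, n = 3 each). The lowest *ken* sample, at 0.524, was above the highest control sample, at 0.459.

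*PCNA* (FBgn0005655, 2R, 20261754 to 20262883) varied little among the control samples and among the *ken* samples. It stood at 1721, 1688 and 1644 normalized counts in control samples. Levels were 1452, 1873 and 1844 in *pri* samples and 1512, 1485 and 1517 in *ken* samples. The *ken* samples lay just under the control samples, and the *pri* samples lay on both sides of them. The log2 fold changes were 0.03 in *pri* mutants (SE 0.10, adjusted p = 0.889, edgeR) and −0.17 in *ken* mutants (SE 0.10, adjusted p = 0.445, edgeR). In *pri* against *ken* it was 0.20 (adjusted p = 0.282, edgeR), and 0.31 without *pri* sample 1, where it passed (adjusted p = 0.0308, edgeR).

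Among the helicase subunits, 4 of 6 had a log2 fold change under 0 in *pri* mutants and 5 of 6 in *ken* mutants, and none was called in either. Their summed level was 6207 ± 501 normalized counts for control, 5641 ± 820 for *pri* and 5501 ± 715 for *ken* embryos (SD, n = 3 each). The samples of the 3 genotypes overlapped, from 5651 to 6623, from 4695 to 6146 and from 4936 to 6305. *pri* sample 1 was the lowest, at 4695, and *pri* samples 2 and 3 stood at 6146 and 6082. *Mcm6* (FBgn0025815, X, 6674387 to 6677176) was the lowest of the 6 in both comparisons. It stood at 1646, 1540 and 1595 normalized counts in control samples. In *pri* samples it was 1199, 1426 and 1385, below all control samples. In *ken* samples it was 1641, 1148 and 1159, where sample 1 was at the level of the control samples and the other 2 were below every other sample. Its log2 fold change was −0.25 in *pri* mutants (SE 0.14, adjusted p = 0.328, edgeR) and −0.28 in *ken* mutants (SE 0.14, adjusted p = 0.352, edgeR). Without *ken* sample 1 the value in *ken* mutants was −0.47 and passed (adjusted p = 0.0319, edgeR).

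*dpa* (FBgn0015929, 2R, 7496702 to 7500145) stood at 1543, 1368 and 1622 normalized counts in control samples, at 1057, 1476 and 1413 in *pri* samples and at 1363, 1128 and 1317 in *ken* samples. Its highest *ken* sample was just under its lowest control sample. The log2 fold changes were −0.20 in *pri* mutants (adjusted p = 0.425, edgeR) and −0.25 in *ken* mutants (adjusted p = 0.386, edgeR). Without *pri* sample 1 the value in *pri* mutants was −0.07. *Mcm6* was the 1 of 10 genes whose *pri* samples all lay below the control samples, and *dpa* and *PCNA* were the 2 of 10 whose *ken* samples did. Over all genes, 15.6% were so separated in *pri* mutants and 12.5% in *ken* mutants. None of the 10 genes had all its *pri* samples above the control samples, as 15.5% of all genes did.

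*Mcm2* (FBgn0014861, 3R, 8264970 to 8267924) stood at 1037, 891 and 1142 normalized counts in control samples, at 692, 964 and 1051 in *pri* samples and at 1047, 876 and 864 in *ken* samples. Its log2 fold changes were −0.18 and −0.14 in *pri* and *ken* mutants, and the value in *pri* mutants was −0.02 without *pri* sample 1. *Mcm3* (FBgn0284442, X, 5323855 to 5326738) stood at 899, 761 and 947 in control samples, at 654, 894 and 917 in *pri* samples and at 796, 657 and 811 in *ken* samples. Its log2 fold changes were −0.08 and −0.21, and 64 of its exon bases overlap *CG3309* on the other strand. Without *pri* sample 1 the value of *Mcm3* in *pri* mutants changed sign, to 0.06. All groups of both genes overlapped.

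*Mcm5* (FBgn0017577, 3R, 10788524 to 10791150) was the subunit with the most even means, at 904 ± 123, 939 ± 126 and 945 ± 144 normalized counts in control, *pri* and *ken* embryos (SD, n = 3 each). *Mcm7* (FBgn0020633, 3L, 8891596 to 8894310), the subunit with the fewest counts, stood at 293, 319 and 303 in control samples. It was 296, 348 and 333 in *pri* samples and 350, 286 and 228 in *ken* samples. The *ken* samples lay on both sides of the control samples and spread more widely. An antisense RNA gene of the annotation shares 2003 exon bases with *Mcm7*, so its reads are uncertain if strand was not used. The adjusted p-values of *Mcm2*, *Mcm3*, *Mcm5* and *Mcm7* against control lay between 0.541 and 0.885 in both mutants (edgeR).

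As a group, the 9 genes other than *DNAlig1* took 0.0484% ± 0.00324 of all counts of control, 0.0484% ± 0.00837 of *pri* and 0.0468% ± 0.00391 of *ken* embryos (SD, n = 3 each). Within the *pri* group the share ran from 0.0388% in sample 1 to 0.0542% in sample 2. Within the *ken* group it ran from 0.0441% in sample 2 to 0.0512% in sample 1. The differences between the genotypes were smaller than these spreads between samples.

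The remaining replication genes were listed by role, 55 of them analysed here. In *pri* mutants 0 rose and 3 fell by edgeR (2 and 9 at an unadjusted p under 0.05), and in *ken* mutants 1 rose and 1 fell (1 and 3, and 2 and 3, by DESeq2). Over all genes tested, edgeR called 3.68% higher and 3.83% lower in *pri* mutants, with 2.21% and 2.81% in *ken* mutants. The medians of the 55 genes were −0.12 and −0.11 on the log2 scale, against 0.02 and 0.01 over all genes. *Psf3*, a subunit of the GINS complex that joins the helicase when origins fire, was the gene called of 19 for origin licensing and firing. It stood at 173, 157 and 191 normalized counts in control samples. The values 87.1, 123 and 110 in *pri* samples and 93.0, 105 and 106 in *ken* samples were all under the control samples. Its log2 fold changes were −0.70 in *pri* mutants (SE 0.17, adjusted p = 0.0378, edgeR) and −0.78 in *ken* mutants (SE 0.17, adjusted p = 0.0327, edgeR), against the same control samples. *Psf3* shares 831 exon bases with *CG17841* on the other strand, and it passed in 9 and 10 of 17 alternatives. Without *pri* sample 1 the value in *pri* mutants did not pass (adjusted p = 0.0759, edgeR), nor did that in *ken* mutants without *ken* sample 1 (0.0896).

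Of 24 genes for fork polymerases and clamp loading, *RpA-70*, the large subunit of the protein that coats single-stranded DNA, rose in *ken* mutants and none was called in *pri* mutants by edgeR (5 at an unadjusted p under 0.05; 1, higher, by DESeq2). It stood at 923, 838 and 994 normalized counts in control samples, at 1059, 1300 and 1299 in *pri* samples and at 1629, 1242 and 1290 in *ken* samples. Control samples were the lowest of the 9. Its log2 fold change in *ken* mutants was 0.59 (SE 0.13, adjusted p = 0.0332, edgeR), and 0.46 without *ken* sample 1, where it did not pass (adjusted p = 0.0744, edgeR). *RpA-70* lies on 3R from 8262120 to 8264451, next to *Mcm2* and on the opposite strand, and *Mcm2* was not called.

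Of 5 genes for deoxynucleotide supply, 1 fell and none rose in *pri* mutants by edgeR (1 higher and 1 lower at an unadjusted p under 0.05; 0 and 1 by DESeq2). For *ken* mutants neither tool called any (1 had an unadjusted p under 0.05). The gene that fell was *CG10051*, with a log2 fold change of −0.40 (adjusted p = 0.0387, edgeR; 0.0813 without *pri* sample 1). It was placed on the list under another name that the annotation used here does not give it, so its role there is uncertain. The 3 of 55 replication genes that fell in *pri* mutants include it. Of 7 genes for replication-coupled chromatin assembly, *abo*, a negative regulator of histone genes, fell by 0.61 on the log2 scale in *pri* mutants (SE 0.14, adjusted p = 0.0331, edgeR; 0.0622 without *pri* sample 1), and none was called in *ken* mutants (2 lower at an unadjusted p under 0.05; 2 lower by DESeq2).

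Of 16 regulators of entry into S phase, only *ago*, an F-box gene whose product targets Cyclin E for destruction, was called by edgeR, in *pri* mutants, with a log2 fold change of −0.55 (SE 0.14, adjusted p = 0.0424, edgeR; 0.0918 without *pri* sample 1). In *pri* mutants 14 of the 16 had a log2 fold change under 0, with a median of −0.16 against 0.02 over all genes. For 6 of the 16, all *pri* samples lay below the control samples, against 15.6% of all genes. Of the 16, 3 were lower in *pri* mutants at an unadjusted p under 0.05. DESeq2 called 2 lower there, *ago* and *mip40* (adjusted p = 0.0296, DESeq2), the latter named after its value was seen. In *ken* mutants 12 of the 16 were under 0, 1 had an unadjusted p under 0.05 and DESeq2 called 0. The calls of *Psf3*, *RpA-70*, *abo* and *ago* were each lost when any 1 control sample was left out, and that of *CG10051* without control sample 1 or 3 (adjusted p between 0.0637 and 0.144, edgeR). *E2f1* and *Dp*, which encode the activating transcription factor of S phase genes, had log2 fold changes of −0.16 and −0.15 in *pri* mutants, with −0.25 and −0.08 for *ken*. *Rbf*, its repressor, had −0.12 and −0.01, and *Dref*, whose product binds promoters of replication genes, had −0.16 and −0.03. *CycE*, the cyclin that starts S phase, had −0.35 in both mutants, and *dap*, an inhibitor of its kinase, had −0.43 and −0.21. *CycE* stood at 883 normalized counts in *pri* sample 1 and at 1565 and 1391 in *pri* samples 2 and 3, against 1541 to 1705 in control samples. None of these 6 passed in either mutant by edgeR (adjusted p between 0.169 and 0.993). *stg*, the phosphatase that starts mitosis, had −0.32 in *pri* mutants and −0.43 in *ken* mutants (adjusted p = 0.167 and 0.0916, edgeR).

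**Figure D4:**
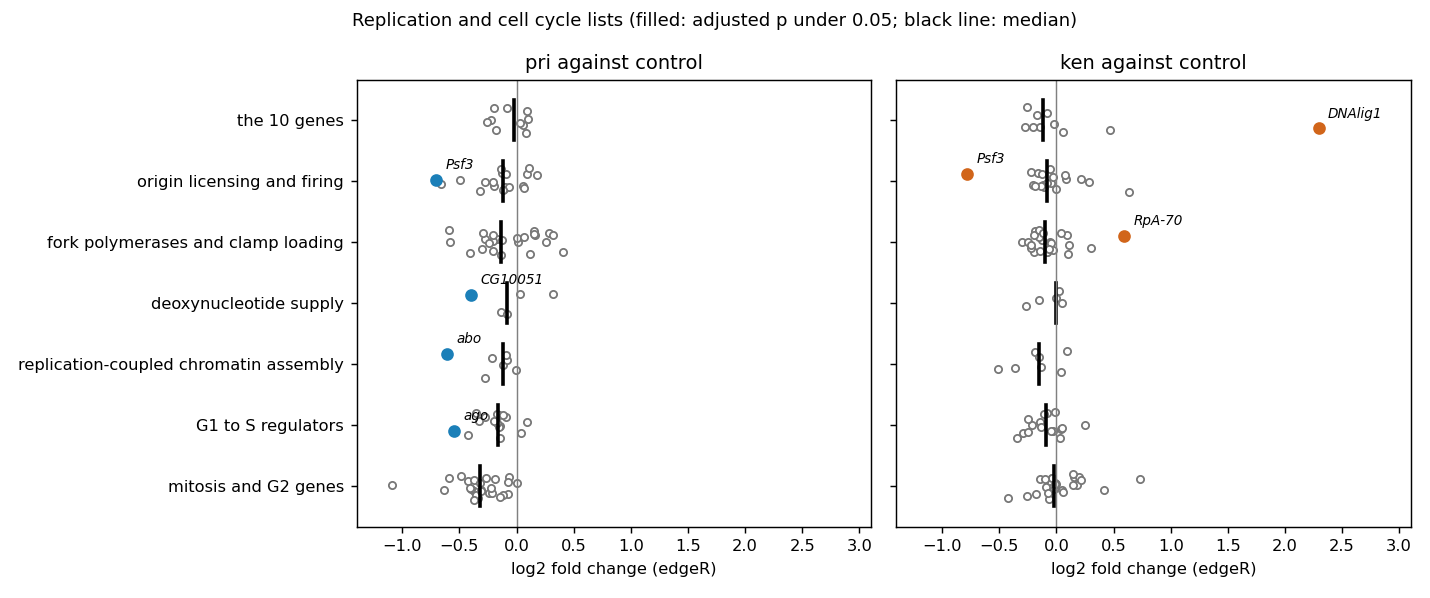
Log2 fold change (horizontal axes, edgeR) of every gene on the replication and cell cycle lists in *pri* against control and *ken* against control, with one circle per gene, filled where the adjusted p is under 0.05, and black lines for list medians. *DNAlig1* stands apart at 2.30 in *ken* mutants, and *Psf3* is called on the low side in both.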

How the data were processed

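RNA-seq of polyadenylated RNA was analysed in 9 samples, 3 per genotype. The authors aligned reads with STAR 2.6.1d to dm6 and deposited whole counts per FlyBase gene for the 15228 genes with a total above 1. The deposited normalized counts are signal values that the authors made by dividing counts by DESeq2 size factors (version 1.32.0). Mouse builds appear in the submitters' processing notes, whereas the table lists fly genes. Of these, 15159 were matched to the Ensembl annotation of dm6 for positions and exon lengths.

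Counts of all 9 samples were fitted in edgeR 4.0.16 (limma 3.58.1, R 4.3.3) with 1 coefficient for each genotype and TMM normalization, keeping every gene. The standard error was obtained by dividing the absolute log2 fold change by the root of the F statistic. The test was also run on simulated counts drawn independently for each gene and sample, a simpler setting than these data, and no result here rests on that run. Alternatives were DESeq2 1.42.0, RLE size factors, library totals, filterByExpr, at least 10 counts in 3 samples, only the genotypes compared, a replicate block, a robust fit, and each of the 9 samples left out in turn, 17 in all. Levels per kilobase used the union of exons, and the longest transcript took its place in a separate check.

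The 10 genes, the lists and the alternatives were chosen with earlier results of these data known. Named by rule were the 10 genes, *ken*, 7 S phase and mitosis regulators, the called genes among the 10 nearest on each side of *DNAlig1*, and for each list, up to 4 called genes by adjusted p. *DCP1*, *Upf3*, *CG5339* and other overlapping genes are named for their position. *Mtpbeta* and *TM4SF* were named after their values were seen. A gene of the lists is not reported here.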

Additional observations from a re-analysis of the deposited data

Results flagged for a closer look

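*DNAlig1* differed between the mutants when they were set directly against each other. The log2 fold change of *pri* against *ken* was −2.52 (SE 0.21, adjusted p = 0.000237, edgeR), with the *pri* samples at 246, 418 and 428 normalized counts and the *ken* samples at 1757, 2108 and 2433, so that it was lower in 3 of 3 *pri* samples. None of the other 9 genes differed between the mutants by this test (0 higher and 1 lower of 9 at an unadjusted p under 0.05; 0 by DESeq2).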

How the results depend on the processing

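The count of replication genes called in *pri* against control was 0 in all 17 alternatives. The count called higher in *ken* against control was 2 instead of 1 by DESeq2 and in a fit of only the genotypes compared, through *RnrL*, and ran from 1 to 2 when samples were left out (2 without *pri* sample 1). The count called lower there ran from 0 to 1 (1 without *ken* sample 1, *Mcm6*). The count called higher in *pri* against *ken* ran from 0 to 1 (1 without *pri* sample 1, *PCNA*), and the count called lower stayed at 1. Values near 0 changed sign without passing. Library totals gave 0.014 for *Mcm5* and a fit of only the genotypes compared gave −0.0012 for *Mcm6*, both in *pri* against *ken*. With samples left out, *pri* against control ran from −0.17 to 0.059 (*Mcm3*), −0.049 to 0.16 (*Mcm5*), −0.031 to 0.14 (*PCNA*) and −0.020 to 0.20 (*RnrS*). *ken* against control ran from −0.071 to 0.15 (*Mcm5*), −0.25 to 0.055 (*Mcm7*) and −0.088 to 0.067 (*RnrS*). *pri* against *ken* ran from −0.17 to 0.12 (*Mcm2*), −0.056 to 0.19 (*dpa*), −0.12 to 0.12 (*Mcm5*) and −0.097 to 0.22 (*Mcm6*).

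With the sample number as a replicate block, the counts were 0 and 0 in *pri* against control, 1 and 0 in *ken* against control and 0 and 1 in *pri* against *ken* (higher and lower), and no call of the 10 genes changed. The numbers were not taken to pair the samples in the main fit. Deviations of control sample 3 and *pri* sample 3 had a correlation of −0.11, and the other pairs with a shared number had 0.12 to 0.55. Pairs with different numbers were mostly under 0. They ran from −0.56 (control sample 2 and *pri* sample 1) to 0.40 (control sample 2 and *pri* sample 3). Whether samples of one number share a batch was not tested. The longest transcript gave the same levels per kilobase as the union of exons. A planned search of promoter motifs was not run, since no sequence was used here, and neither was a planned fit of normalized values, since counts were at hand. With 3 samples per genotype, the 95% intervals limit what can be said of genes that were not called.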

Other observations

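Among 16 genes of the DNA damage response, 3 rose in *ken* mutants and none fell, and none was called in *pri* mutants (edgeR; 3 higher at an unadjusted p under 0.05 in *pri* mutants and 0 by DESeq2). Over all genes tested, edgeR called 2.21% higher and 2.81% lower in *ken* mutants, and DESeq2 called 4.28% higher. *mre11*, a nuclease gene of double-strand break repair on 2L, stood at 195, 245 and 203 normalized counts in control samples. The *pri* samples stood at 195, 230 and 254, and the *ken* samples at 783, 603 and 550, which lay above all others. Its log2 fold change was 1.59 in *ken* mutants (SE 0.17, adjusted p = 0.000915, edgeR), it passed in all 17 alternatives, and it differed between the mutants (−1.51 for *pri* against *ken*, adjusted p = 0.000973, edgeR). *rad50* and *nbs*, whose products form a complex with that of *mre11*, had log2 fold changes of 0.16 and 0.07 in *ken* mutants and did not pass. *Xrp1*, a transcription factor gene of the stress response on 3R, stood at 13619, 10950 and 9709 normalized counts in control samples and at 31959, 20880 and 24417 in *ken* samples, a log2 fold change of 1.17 (SE 0.19, adjusted p = 0.00738, edgeR) that passed in all 17 alternatives. *Ku80*, of non-homologous end joining, had a log2 fold change of 0.92 (SE 0.21, adjusted p = 0.0384, edgeR), and 0.65 without *ken* sample 1, where it did not pass (adjusted p = 0.0678, edgeR). The rise of *Ku80* passed in 10 of 17 alternatives. It did not pass when any control sample was left out (adjusted p between 0.121 and 0.134, edgeR). *p53*, *rpr* and *hid* were not called by edgeR (log2 fold changes of −0.01, −0.56 and −0.24 in *ken* mutants). DESeq2 called *rpr*, a cell death gene, lower in *ken* mutants (adjusted p = 0.0487), beside 3 of the 16 higher.

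Of 26 genes for mitosis and G2, none was called by edgeR in either mutant (2 lower at an unadjusted p under 0.05 in each; 0 and 1 lower by DESeq2). In *pri* mutants 25 of the 26 had a log2 fold change under 0, with a median of −0.32, and 16 had all *pri* samples below the control samples, against 15.6% of all genes. In *ken* mutants 16 of 26 were under 0, with a median of −0.02. Their summed level was 30303 and 30681 normalized counts in the lower 2 *ken* samples and 50275 in the highest, against 36971 to 37469 in control samples. Without *ken* sample 1, edgeR called 5 of the 26 lower for *pri* and 3 for *ken* mutants.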
